A study of Canis lupus familiaris with 32 samples.

Results

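The oncostatin M axis and its JAK-STAT feedback were represented by 5 genes: OSM, the ligand; OSMR, a subunit of its receptor; JAK2, a receptor-bound kinase; and CISH and SOCS3, inhibitors that the pathway itself induces. They were chosen by name from the authors' gene table of 17107 genes. Each was tied to the 1 probe set on the array whose folds and adjusted p-values equalled the gene's own, which could be done for 10512 genes of that table, all 5 included. The array may hold further probe sets for these genes, and those carry no name here and were not used.

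Skin was biopsied from 8 Maltese-beagle dogs with atopic dermatitis (5 males and 3 females, aged 5.5 to 10.5 years). All 8 had been sensitized through the skin to the house dust mite Dermatophagoides farinae and were picked because a mite challenge had given them acute lesions, so no group holds unsensitized or healthy dogs. Every dog gave 4 biopsies of the lateral thorax: a control taken 6 h after a mineral oil patch, and skin under a mite patch taken after 6 h, 24 h or 48 h. Each of the 32 biopsies was hybridised to 1 array. The control analysed here is of 6 h alone, so at 24 h and 48 h the allergen and the time since patching cannot be told apart.

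Oncostatin M is a cytokine of the interleukin-6 family, made mainly by T cells, macrophages and neutrophils. In human and mouse skin it binds a receptor of OSMR and gp130 on keratinocytes, fibroblasts and endothelial cells, and OSMR also pairs with IL31RA to form the receptor of interleukin-31, a cytokine of itch. Bound receptors activate Janus kinases, which phosphorylate STAT proteins. STAT3 induces SOCS3 and STAT5 induces CISH, and both proteins then bind active receptor complexes and damp the signal.

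CISH was higher in allergen-patched skin at 24 h and 48 h, JAK2 and SOCS3 were higher at 48 h, and the signal of OSM itself passed no test. CISH rose 1.54-fold at 24 h and 1.59-fold at 48 h over the control. JAK2 rose 1.51-fold and SOCS3 1.27-fold at 48 h. OSMR passed no test against the control and was 2.16-fold higher at 24 h than at 6 h. Against the control, limma called 0 of the 5 genes at 6 h, where 2 had an unadjusted p under 0.05, then 1 at 24 h and 3 at 48 h, and all that passed were rises. Over all 42860 probe sets the shares that passed at an adjusted p of 0.05 were 2.89% at 6 h, 8.19% at 24 h and 19.7% at 48 h, and rises alone made up 0.275%, 2.97% and 10.6%.

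**Figure D1:**
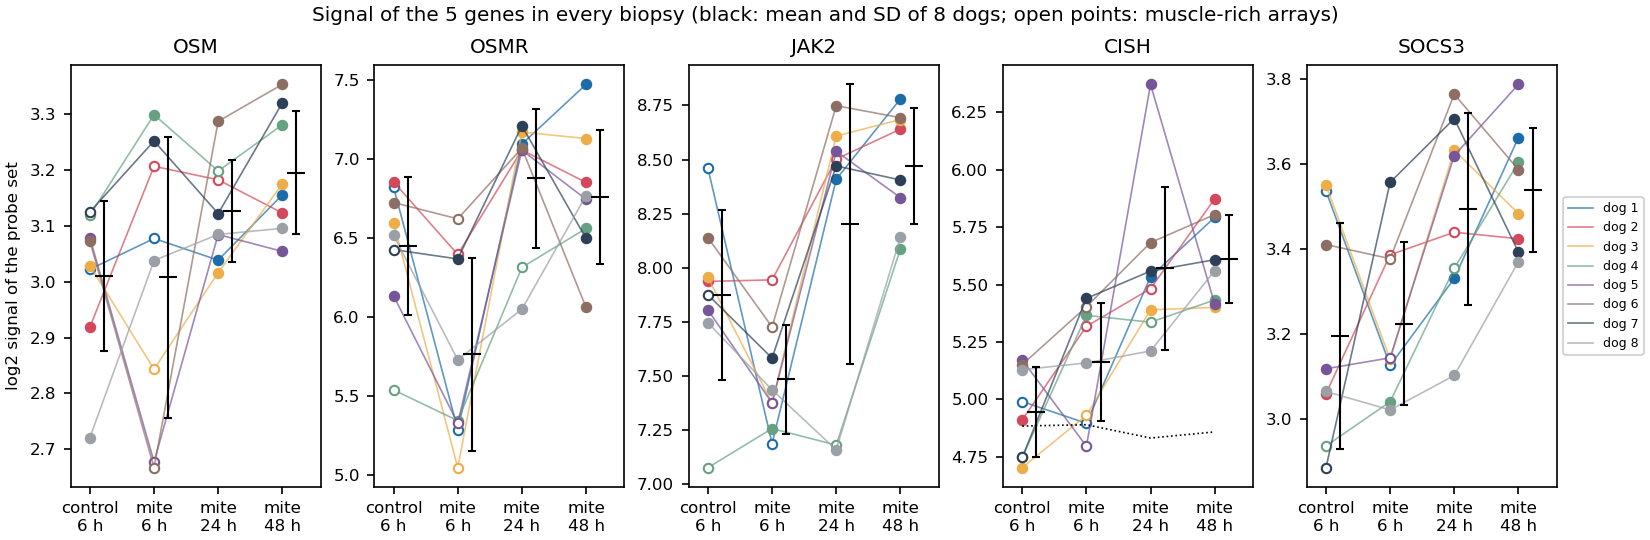
Log2 signal of each gene's probe set (y axis) in every biopsy, by group (x axis: the control, then mite-patched skin by time); coloured points are dogs, black marks are the mean and SD of 8 dogs, open points are arrays rich in skeletal muscle transcripts, and the dotted line in the CISH panel is the mean array median. All 8 CISH values at 24 h and at 48 h lie above all 8 control values, while the OSM values of the 4 groups overlap.

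The ligand gave a dim signal. OSM lay below the array median on all 32 arrays. In the control group the log2 signal ran from 2.72 over a median of 3.05 to 3.13, and at 6 h from 2.67 over 3.06 to 3.30. At 24 h it ran from 3.02 over 3.10 to 3.29, and at 48 h from 3.05 over 3.17 to 3.35. The 4 groups overlap, and at 6 h the dogs were spread most widely, with an SD of 0.25 against 0.09 at 24 h.

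The change of OSM from the control was -0.003 on the log2 scale at 6 h (95% interval -0.16 to 0.15, adjusted p = 0.991), with 5 dogs higher and 3 lower. At 24 h it was 0.12 (-0.04 to 0.27, adjusted p = 0.415). At 48 h it was 0.18 (0.03 to 0.34), higher in 7 of 8 dogs, with an adjusted p of 0.0954. The call at 48 h depended on the setting: OSM passed after quantile normalization (0.22, adjusted p = 0.0443) and when only those 2 groups were fitted (adjusted p = 0.0392). From 6 h to 48 h OSM differed by 0.19 ± 0.08 (SE, adjusted p = 0.0674), and this passed without dog 2 (0.23, adjusted p = 0.0494), after quantile normalization and after centring. The intervals leave room for a rise of the transcript of up to 0.34 at 48 h and say nothing of the secreted protein.

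The receptor subunit OSMR was lowest at 6 h. Its log2 signal ran from 5.54 over a median of 6.56 to 6.85 in the control group and from 5.04 over 5.53 to 6.62 at 6 h. At 24 h it ran from 6.05 over 7.06 to 7.21, and at 48 h from 6.06 over 6.76 to 7.47. At 6 h the signal was below the dog's own control in 8 of 8 dogs, by 0.06 (dog 7) to 1.55 (dog 3). A difference of the same sign downward in 8 of 8 dogs was found for 3.64% of all probe sets.

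The mean difference at 6 h was -0.69 ± 0.21 (SE, n = 8 dogs), with an adjusted p of 0.0745 in limma. It passed under 2 of 23 alternatives, when arrays were weighted by their quality (-0.71, adjusted p = 0.0288) and without dog 6 (-0.77, adjusted p = 0.0498). Over these alternatives the difference ran from -0.78 to -0.40, with adjusted p-values in limma of up to 0.9998. Against the control the differences at 24 h, 0.43 ± 0.21 (adjusted p = 0.244), and at 48 h, 0.31 ± 0.21 (adjusted p = 0.342), did not pass. Dog 6 was 0.66 below its control at 48 h and dog 4 was 1.02 above.

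Between times OSMR differed more than against the control. From 6 h to 24 h it rose by 1.11 ± 0.21 (SE, adjusted p = 0.000812), in 8 of 8 dogs, and at 48 h it was still 1.00 ± 0.21 above 6 h (adjusted p = 0.000806), higher in 7 of 8 dogs with dog 6 lower. From 24 h to 48 h it differed by -0.12 (95% interval -0.55 to 0.32, adjusted p = 0.869). The shares of all probe sets that passed were 17.3% from 6 h to 24 h, 29.4% from 6 h to 48 h and 2.56% from 24 h to 48 h. Among the 5 genes the counts were 3, 4 and 0, the last in limma with 0 at an unadjusted p of 0.05. Muscle transcripts were also highest on average at 6 h. Within that group OSMR ran from 5.04 over a median of 5.32 to 6.62 on the 5 arrays rich in skeletal muscle transcripts. On the other 3 arrays it ran from 5.34 over 5.73 to 6.37. The part of muscle in these OSMR values was not tested.

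JAK2, which carries signals from receptors of the gp130, common beta and interferon gamma families, was also lowest on average at 6 h, and its highest mean came at 48 h. Its log2 signal ran from 7.08 over a median of 7.91 to 8.46 in the control group, from 7.19 over 7.41 to 7.94 at 6 h, from 7.16 over 8.49 to 8.75 at 24 h and from 8.09 over 8.52 to 8.78 at 48 h. At 24 h the dogs fell into 6 between 8.41 and 8.75 and 2 near 7.2, which were dog 4 (7.18) and dog 8 (7.16). At 48 h these dogs reached 8.09 and 8.14, the lowest values of that group, and the SD went from 0.64 to 0.27.

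At 48 h JAK2 was 0.60 ± 0.14 above the control (SE, adjusted p = 0.00345), higher in 8 of 8 dogs by 0.32 to 1.01, although the groups overlap. At 6 h the difference was -0.39 ± 0.14 (adjusted p = 0.146), lower in 6 of 8 dogs, and at 24 h it was 0.33 ± 0.14 (adjusted p = 0.173), higher in 6 of 8 dogs. Without dog 8, which was 0.59 lower at 24 h than in its control, the difference at 24 h was 0.46 and passed (adjusted p = 0.0367). JAK2 was 0.98 ± 0.14 higher at 48 h than at 6 h (adjusted p = 1.14e-05). All 8 values at 48 h lay above all 8 at 6 h, a separation found in 4.48% of probe sets. From 6 h to 24 h it rose by 0.72 ± 0.14 (adjusted p = 0.00123), and dogs 4 and 8 were the 2 that were not higher. The step from 24 h to 48 h, 0.27 ± 0.14, did not pass (adjusted p = 0.419).

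CISH, an inhibitor of STAT5 signalling that binds the activated receptors, rose above the control with no overlap between groups at both later times. Its log2 signal ran from 4.70 over a median of 4.95 to 5.17 in the control group and from 4.80 over 5.24 to 5.44 at 6 h. At 24 h it ran from 5.21 over 5.51 to 6.37, and at 48 h from 5.40 over 5.58 to 5.87. The signal was above its array's median on 5 control arrays, on 6 at 6 h, and on 8 of 8 at each later time.

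The rise over the control was 0.63 ± 0.12 at 24 h (SE, adjusted p = 0.00196) and 0.67 ± 0.12 at 48 h (adjusted p = 0.000276), in 8 of 8 dogs each time, as for 2.21% and 7.81% of probe sets. Groups without overlap were found for 0.712% of probe sets at 24 h and 3.49% at 48 h. The smallest rise was 0.08 at 24 h (dog 8) and 0.24 at 48 h (dog 5). At 6 h the difference was 0.22 ± 0.12 (adjusted p = 0.391), with dogs 1 and 5 lower than in their controls, and without dog 5 it was 0.30 and passed (adjusted p = 0.0469).

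One biopsy stood apart for CISH. Dog 5 had 6.37 at 24 h, while the next dog had 5.68, and by 48 h dog 5 was at 5.42. That array also had the lowest median of all 32, 4.64, where the others lay between 4.83 and 4.91, and the part of this in the CISH value was not tested. Without that array CISH still passed at 24 h, with a rise of 0.50 ± 0.09 (adjusted p = 0.00215). CISH was also higher at 24 h than at 6 h by 0.41 ± 0.12 (adjusted p = 0.0230), or by 0.28 without the array (adjusted p = 0.0466), and it lost that call without dog 1 (0.37, adjusted p = 0.0641), dog 3 (0.40, adjusted p = 0.0686) or dog 5 (0.24, adjusted p = 0.0642). At 48 h it was 0.45 ± 0.12 above 6 h (adjusted p = 0.00717), higher in 8 of 8 dogs.

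SOCS3, which binds gp130 and JAK2 and ends STAT3 signalling, was dim, with signals below the array median on all 32 arrays. They ran from 2.89 over a median of 3.09 to 3.55 in the control group and from 3.02 over 3.14 to 3.56 at 6 h. At 24 h they ran from 3.10 over 3.53 to 3.76, and at 48 h from 3.37 over 3.53 to 3.79. The control group itself was split, with dogs 1, 3 and 6 between 3.41 and 3.55 and the other 5 dogs between 2.89 and 3.12. The groups overlap at each time.

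At 48 h SOCS3 was 0.34 ± 0.10 above the control (SE, adjusted p = 0.0118), higher in 7 of 8 dogs, and dog 3 was 0.07 lower. This call was lost without dog 4 (0.30, adjusted p = 0.0575). At 24 h the difference was 0.30 ± 0.10 with an adjusted p of 0.0538, and it passed under 6 of 22 alternatives, among them quantile normalization (0.34, adjusted p = 0.0361) and the fit without dog 1 (0.37, adjusted p = 0.0218). At 6 h the difference was 0.03 (95% interval -0.17 to 0.23, adjusted p = 0.929). SOCS3 was 0.31 ± 0.10 higher at 48 h than at 6 h (adjusted p = 0.0150), a call lost without dog 4 or dog 5 (adjusted p = 0.0540 and 0.0557). The step from 6 h to 24 h was 0.27 ± 0.10, in 8 of 8 dogs, with an adjusted p of 0.0529, and it passed without dog 7 (adjusted p = 0.0385).

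**Figure D2:**
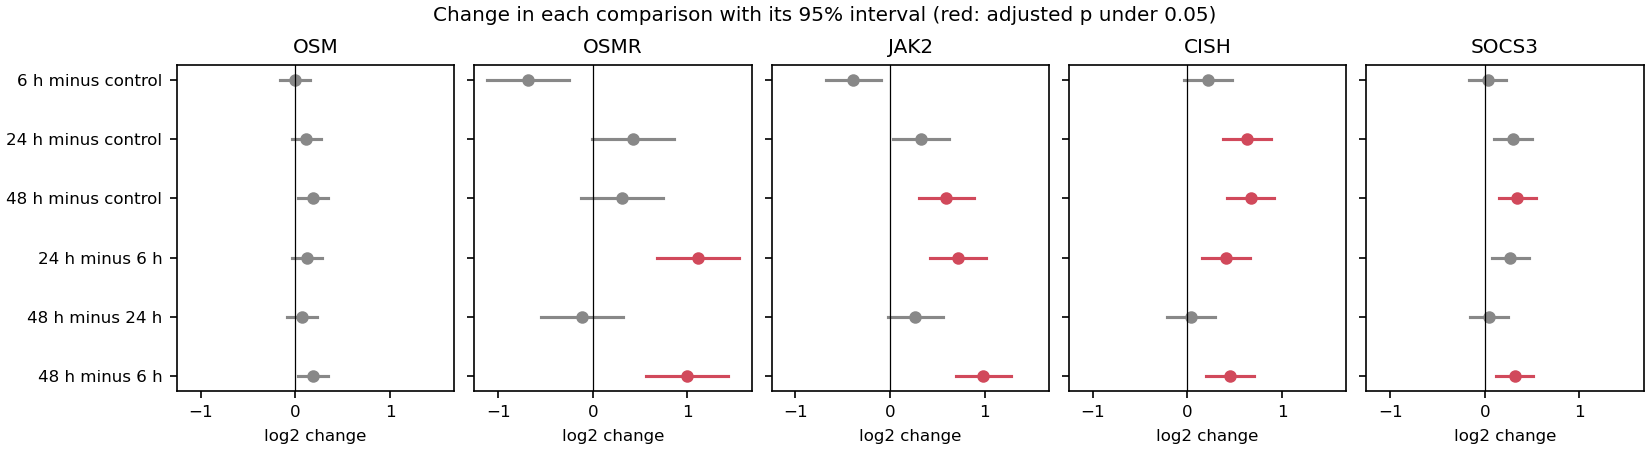
Log2 change (x axis) of each gene in the 6 comparisons (y axis) with its 95% interval from the within-dog fit; red marks an adjusted p under 0.05 over 42860 probe sets. OSMR moves most between 6 h and 24 h (1.11), CISH passes in both later comparisons with the control, and the intervals of the step from 24 h to 48 h include 0 for each of the 5 genes.

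In the authors' deposited table, whose values equal those of a linear model without the dog, CISH had a fold of 1.5 at 24 h and 1.6 at 48 h, with adjusted p-values of 0.006 and below 0.001. For JAK2 at 48 h the authors' deposited table gives 1.5 with an adjusted p of 0.056, so that JAK2 did not pass in that model. For SOCS3 at 48 h the authors' deposited table gives 1.3 with 0.027. For OSM the authors' deposited table gives 1.1 at 48 h (adjusted p = 0.129), and for OSMR -1.6 at 6 h (adjusted p = 0.191), where the sign marks a lower value.

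It was asked whether dogs with a larger change of 1 gene had a larger change of another. For each of the 10 pairs of genes the within-dog changes from the control were correlated over 8 dogs at 24 h and at 48 h, 20 relations in all, with exact permutation tests. 0 of the 20 passed after Benjamini-Hochberg adjustment. The tightest was OSMR with CISH at 24 h, with a Pearson r of 0.89 (exact permutation p = 0.0035, adjusted p = 0.0704) and a Spearman rho of 0.88 (p = 0.0072, adjusted p = 0.145). Without dogs 5 and 8 its r was 0.70. At 48 h the same pair had an r of -0.21 (exact permutation p = 0.619, adjusted p = 0.688). The next was negative, between the ligand and its receptor at 24 h. OSM with OSMR had an r of -0.83 (exact permutation p = 0.0091, adjusted p = 0.0910; rho = -0.74, p = 0.0458, adjusted p = 0.174), and -0.42 without dogs 2 and 8. OSM with CISH had an r of -0.74 (exact permutation p = 0.0201, adjusted p = 0.1003), and JAK2 with CISH had 0.79 (exact permutation p = 0.0151, adjusted p = 0.1003). OSMR and JAK2 had an r of 0.73 at 24 h (exact permutation p = 0.0343, adjusted p = 0.137), and an r of 0.03 without dogs 5 and 8, so that relation rests on these dogs. Dogs 4 and 8 had the lowest signals at 24 h for OSMR (6.31 and 6.05) and CISH (5.34 and 5.21) as well as for JAK2.

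Over the 32 arrays, with each dog's mean subtracted, OSMR and JAK2 had the most similar signals among the 5 genes (r = 0.81), and OSM and OSMR the least (r = 0.23). JAK2 and CISH had 0.70, JAK2 and SOCS3 0.71, and CISH and SOCS3 0.67. These coefficients describe arrays that share dogs, groups and tissue makeup, and no p is given. Among 10511 other linked genes the 5 most like OSMR were TNFRSF1A, a tumour necrosis factor receptor (0.92), SELP, an adhesion molecule of activated endothelium and platelets (0.92), EIF4A1, a translation factor (0.91), VCAN, a matrix proteoglycan (0.90), and CCL2, a monocyte attractant (0.89). Among those most like JAK2 were SNX7 (0.93), SSR1 (0.92), LOC480059 (0.92) and IFNGR2, a subunit of the interferon gamma receptor (0.92).

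SOCS3 was most like CREM, a cyclic AMP responsive transcription factor (0.85), ICAM1, a leukocyte adhesion molecule (0.85), GPR171 (0.84), IL6 (0.82) and TNFAIP6 (0.82). CISH was most like HBXIP (0.88), SLC25A1, the mitochondrial citrate carrier (0.86), LOC607701 (0.85), COPE (0.85) and LALBA (0.85). For OSM the closest were ATOX1, PAPSS2, LPCAT1, PRKCD and C25H2orf72, with r from 0.67 to 0.70.

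The surrounding pathway was described through gene lists, counted over those members with a linked probe set, with 23.2% of all 10512 linked genes past the test at 48 h (12.2% as rises and 10.9% as falls), and a median change of -0.02. Of the ligands of the interleukin-6 family 6 of 11 were linked, and at 48 h 1 rose and 0 fell. That 1 was IL6, which rose by 2.03 ± 0.55 (SE, adjusted p = 0.00936), from 4.53 ± 1.58 to 6.55 ± 1.04 (SD, n = 8), in 7 of 8 dogs. The median change of the 6 ligands was 0.01. Of the gp130 family receptors 2 of 8 were linked, OSMR and CNTFR, and 0 passed in limma against the control at any time. The authors' deposited table holds 7 of the 8, and at 48 h it gives 1 as higher and 1 as lower. IL31, IL31RA, IL6ST and STAT3 had no linked probe set and were not analysed here.

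Among the Janus kinases, JAK2 and JAK3 were linked, and JAK3, which serves the common gamma receptors, did not pass against the control at any time.

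Feedback inhibitors moved in both directions. Of 12 linked of 19 listed, 3 rose and 2 fell at 48 h, and their median change was 0.14. Beside CISH and SOCS3 the third to rise was SH2B3, an adaptor that restrains JAK2 in blood cells, at 0.26 ± 0.07 (adjusted p = 0.0135). SOCS5, known to bind the interleukin-4 receptor, fell by 0.29 ± 0.07 (adjusted p = 0.00409), lower in 8 of 8 dogs. PTPN11, a phosphatase recruited to gp130 that SOCS3 competes with, fell by 0.33 ± 0.11 (adjusted p = 0.0453), lower in 6 of 8 dogs. Both were already lower at 6 h, SOCS5 by 0.30 ± 0.07 (adjusted p = 0.0223) and PTPN11 by 0.42 ± 0.11 (adjusted p = 0.0432), and all 8 dogs showed both. Of 17 inhibitors in the authors' deposited table, 0 passed at 6 h, and 6 were higher and 1 lower at 48 h. In limma SOCS5 and PTPN11 were the 2 of the 12 that passed at 6 h, and the share of all linked genes that passed as falls at 6 h was 4.08%.

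Genes known to be induced by STAT3 or oncostatin M were linked for 17 of 26. At 24 h 6 rose and 0 fell, against 3.63% of all linked genes that rose then. In the authors' deposited table, without the dog in the model, 1 of the 22 list members it holds was higher and 0 were lower at 24 h, and 9 were higher and 1 lower at 48 h. At 48 h 8 rose and 1 fell, with a median change of 0.34. The largest rises at 48 h were S100A9 and S100A8, the 2 chains of calprotectin, by 3.99 ± 0.48 (adjusted p = 1.88e-06) and 2.62 ± 0.33 (adjusted p = 2.87e-06). SAA1, an acute phase protein, rose by 2.48 ± 0.34 (adjusted p = 8.65e-06), and TIMP1, an inhibitor of matrix metalloproteinases, rose by 1.83 ± 0.30 (adjusted p = 8.3e-05). ICAM1 rose by 0.77 ± 0.22 (adjusted p = 0.0141) and FOSL1 fell by 0.35 ± 0.09 (adjusted p = 0.00552). S100A8 was lower at 6 h, by 1.20 ± 0.33 (adjusted p = 0.0446). SOCS3 and OSMR stand in this list, and several of the others are also abundant in neutrophils and macrophages. Of 3 linked differentiation genes of the epidermis that oncostatin M lowers in human keratinocytes, KRT10, DSC1 and CDSN, 0 passed in limma at any time against the control.

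Genes that STAT5 induces were linked for 8 of 11, and CISH was the 1 that rose at 24 h and at 48 h. OSM itself belongs to that list. IGF1, a STAT5 target of growth hormone in liver, was lower at 24 h than at 6 h by 0.93 ± 0.16 on the log2 scale (adjusted p = 0.000349), in 8 of 8 dogs.

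Cytokines and hormones that bind the common gamma, common beta, TSLP or homodimeric receptors were measured beside CISH. Of 17 such ligands 14 were linked, and 6 rose and 1 fell at 48 h. The T helper 9 cytokine IL9 rose by 3.31 ± 0.50 (SE, adjusted p = 3.22e-05). The T helper 2 cytokines did too: IL13 rose by 2.48 ± 0.29 (adjusted p = 1.42e-06), IL4 by 0.72 ± 0.14 with an adjusted p of 0.000364, and IL5 by 0.53 ± 0.11 with an adjusted p of 0.00109. All 8 dogs showed each of these 4 rises. LEP, the adipocyte hormone leptin, fell by 2.43 ± 0.33 in 8 of 8 dogs (adjusted p = 8.47e-06), and 5 of 6 linked adipocyte markers, LEP among them, fell at 48 h. Of 31 receptors coupled to JAK1, JAK2 or JAK3, 20 were linked, and 3 rose and 1 fell at 48 h. CSF2RA, the alpha chain for GM-CSF, rose by 1.42 ± 0.22 (adjusted p = 4.36e-05), and IL3RA rose by 0.76 ± 0.13 (adjusted p = 9.93e-05), both without overlap between groups. IFNGR2 rose by 0.50 ± 0.10 (adjusted p = 0.000498), and GHR, the growth hormone receptor, fell by 1.21 ± 0.20 (adjusted p = 0.000102).

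**Figure D3:**
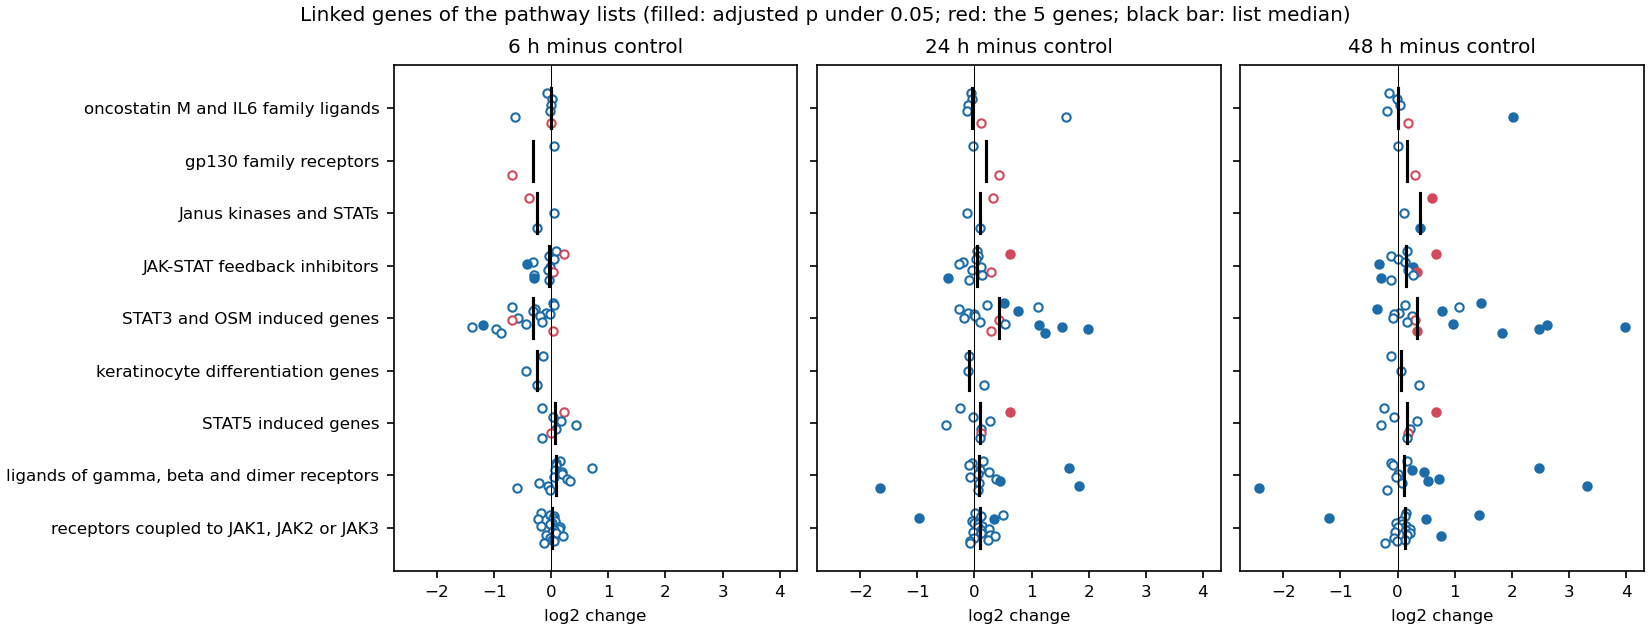
Log2 change from the control (x axis) of every linked gene of the pathway lists (y axis) at 6 h, 24 h and 48 h; filled points passed at an adjusted p of 0.05, red points are among the 5 genes, and black bars are list medians. The changes over 2 are those of S100A9, IL9, S100A8, IL13, SAA1, IL6 and, as a fall, LEP at 48 h.

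The biopsies are mixtures of cells, so that fewer cells of a type and less RNA per cell cannot be told apart. Markers of leukocytes rose against the control too, fewer of them at 24 h, when CISH had passed, than at 48 h. At 24 h 1 of 7 linked T cell markers, 1 of 7 macrophage markers and 3 of 8 dendritic cell markers rose. The share of all linked genes that rose was then 3.63%. At 48 h the counts were 5 of 7, 6 of 7 and 8 of 8, and the share was 12.2%. From the control to 48 h the mean log2 signals of these markers went from 3.87 ± 0.11 to 4.96 ± 0.55, from 6.15 ± 0.38 to 7.32 ± 0.29 and from 4.18 ± 0.09 to 5.45 ± 0.49 (SD, n = 8). Of 4 linked neutrophil markers 1 rose, of 3 mast cell markers 2 rose and 1 fell, and of 2 eosinophil markers 0 passed in limma. The part of these cells in the changes of the 5 genes was not tested.

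Markers of the resident skin cells moved as well. The 5 linked markers of keratinocytes, the main cells of the epidermis, had mean log2 signals of 9.18 ± 0.31, 8.79 ± 0.51, 9.06 ± 0.35 and 9.19 ± 0.18 (SD, n = 8) in the control, 6 h, 24 h and 48 h groups. The lowest mean was at 6 h, as for OSMR and JAK2. DSG3 fell at 6 h, as did 4.08% of all linked genes. KRT5, KRT10 and DSG3 rose from 6 h to 48 h, as did 16.1% of all linked genes. The 4 linked fibroblast markers, PDGFRA, LUM, DCN and COL1A2, had means of 9.43 ± 0.14, 9.59 ± 0.25, 8.79 ± 0.28 and 9.16 ± 0.24 in the same order. All 4 fell at 24 h, against the control and against 6 h, 3 fell from 6 h to 48 h, and 1 fell at 48 h against the control. Falls made up 7.22%, 8.17%, 12% and 10.9% of all linked genes in these comparisons, in that order. Of 3 linked endothelial markers PECAM1 fell at 24 h and 48 h against the control, and VWF rose at 48 h. The part of these cells in the values of OSMR, JAK2 and CISH was not tested.

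Skeletal muscle differed between groups. The mean log2 signal of 6 linked muscle markers was 5.63 ± 1.89 in the control, 6.97 ± 2.31 at 6 h, 4.67 ± 2.19 at 24 h and 3.36 ± 0.08 at 48 h. Single arrays ran from 3.72 to 8.79 in the control, from 3.98 to 9.03 at 6 h, from 3.06 to 8.24 at 24 h and from 3.26 to 3.50 at 48 h, and the 48 h group alone held no array with a high score. A score of 6 or more, called muscle-rich, was found on 3, 5, 2 and 0 arrays of these groups. Without those 10 arrays CISH was 0.62 ± 0.15 above the control at 24 h (adjusted p = 0.0236) and 0.61 ± 0.14 at 48 h (adjusted p = 0.00648). JAK2 was 0.59 ± 0.15 above it at 48 h (adjusted p = 0.0107). SOCS3 at 48 h was 0.29 ± 0.11 and no longer passed (adjusted p = 0.0867).

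The differences from the 6 h allergen group depended more on those arrays, of which that group kept 3. OSMR from 6 h to 24 h was 0.88 ± 0.27 without them (adjusted p = 0.234), in a comparison where 0 of 42860 probe sets then passed. CISH from 6 h to 48 h was 0.20 ± 0.18 (adjusted p = 0.603), and JAK2 from 6 h to 48 h was 0.75 ± 0.18 and still passed (adjusted p = 0.0328). OSMR and SOCS3 also lost their calls from 6 h to 48 h without those arrays. With the muscle score as a covariate OSMR and JAK2 still passed from 6 h to 24 h, where 7.98% of probe sets passed. From 6 h to 48 h JAK2 was again the only one of the 5 genes to pass with that covariate, where 13.3% of probe sets passed. The 3 biopsies at 6 h that held little muscle came from dogs 4, 8 and 7, with OSMR at 5.34, 5.73 and 6.37. The 5 such controls had 6.13 to 6.85, but of these dogs only dog 8 is among them. Against their own controls dogs 4, 8 and 7 differed by -0.19, -0.79 and -0.06, and the controls of dogs 4 and 7 were muscle-rich.

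A control of RNA quality on the array, the difference between the 3' and 5' probe sets for actin, had means of 2.27 ± 0.32, 2.78 ± 0.48, 2.08 ± 0.37 and 1.79 ± 0.29 log2 units (SD) in the control, 6 h, 24 h and 48 h groups, where a larger value means less 5' signal. A second actin pair had 1.03 ± 0.86, 0.52 ± 0.88, 1.08 ± 0.55 and 0.97 ± 0.28 and thus another order. Yet another actin pair had similar means in these groups, 2.77 ± 0.22, 2.70 ± 0.14, 2.69 ± 0.53 and 2.69 ± 0.23, and was not used as a covariate. The actin pairs thus differ on whether RNA quality varied between the groups. With the first as a covariate CISH still passed against the control at 24 h (0.61, adjusted p = 0.00458) and 48 h (0.62, adjusted p = 0.00943). With it JAK2 at 48 h was 0.35 (adjusted p = 0.177) and SOCS3 0.25 (adjusted p = 0.198), and 0 of the 5 genes passed between 6 h and any later time.

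**Figure D4:**
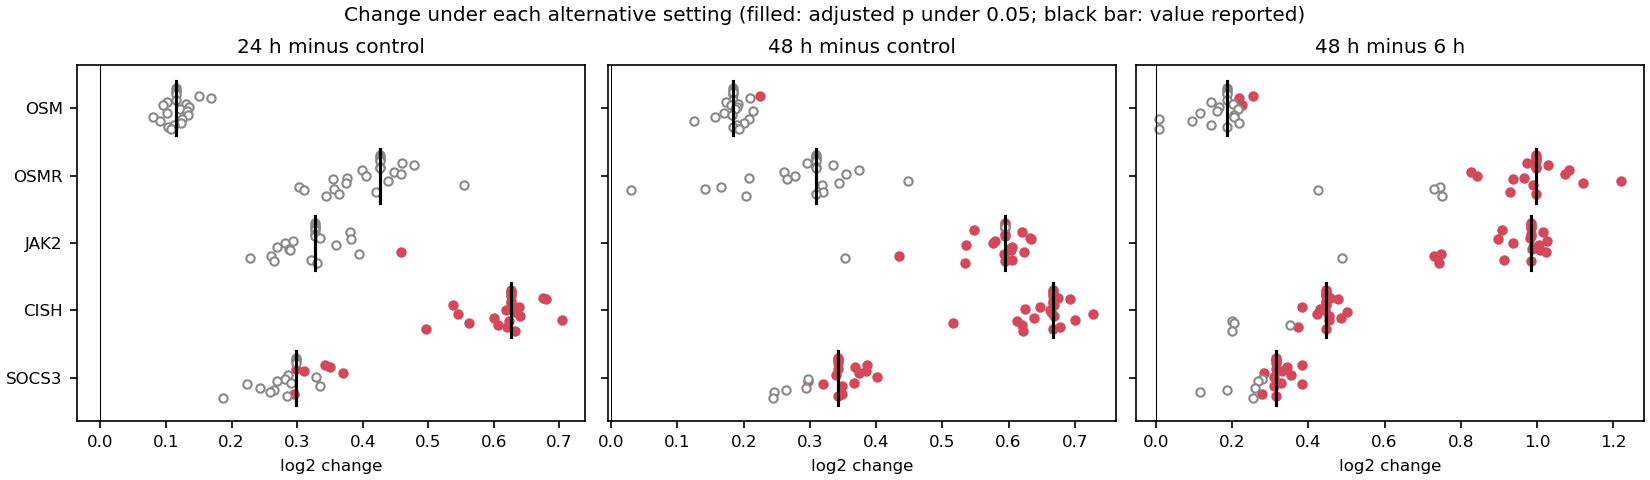
Log2 change (x axis) of each gene (y axis) under every alternative setting in 3 comparisons; filled points passed at an adjusted p of 0.05 and the black bar is the value reported. CISH passes under 23 of 23 alternatives at 24 h and at 48 h, JAK2 under 21 of 23 and SOCS3 under 17 of 22 at 48 h.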

How the data were processed

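Total RNA of 32 biopsies was converted to cDNA, labelled with biotin and hybridised, per the labels' protocols. The authors deposited log2 signals for 43035 probe sets. Their normalization, the genome build and the probe annotation were not given in the sources read. A second deposited table covers 17107 genes and holds, per time, the authors' signed fold, a score rounded to 1 decimal and negative where lower, and an adjusted p-value.

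The deposited log2 values carry no gene names. A gene was linked to a probe set when its 3 folds and 3 adjusted p-values in the authors' deposited table equalled those of an ordinary linear model without the dog for exactly 1 probe set (within 0.05 and 0.001). This gave 10512 usable links, and 6580 genes had none.

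After 175 array controls were left out, 42860 probe sets were fitted with limma 3.58.1 in R 4.3.3, with 4 groups and the dog as a fixed block (21 residual degrees of freedom). Tests are 2-sided with Benjamini-Hochberg adjustment over all probe sets and a threshold of 0.05. Biopsies were paired by the dog that each label names. Deviations from the group means correlated at 0.16 on average over 48 pairs of arrays of 1 dog, with 33 of them above 0.1. No 2 arrays held identical values. Precision is limited by the 8 arrays a group. The fit was tested on simulated data.

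The 5 genes, the gene lists and the marker lists were chosen with earlier results of these data known. Named from each list are up to 4 genes with the largest change that passed at 48 h, up to 2 that passed elsewhere, and for likeness the 5 linked genes with the highest r. FOSL1, JAK3, CNTFR, the 3 epidermal genes, the skin cell markers and 4 unlinked genes fall outside this rule and were named after the values were seen. A few results under it are left unreported. Alternatives covered normalization, centring, dim probe sets, variance models, the dog, left-out dogs, muscle-rich arrays and actin. A search of promoters for motifs was planned and not run, as no sequences were used here.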

Additional observations from a re-analysis of the deposited data

Results flagged for a closer look

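Dog 5 stood apart from the other dogs of its group in 3 values of CISH. Its signal at 24 h was 6.37, its change from 6 h to 24 h was 1.57, and its change from 24 h to 48 h was -0.96. In each case the gap to the next dog exceeded the 95% limit of Dixon's test for the share of the group's range. Of 50 groups checked, 3 were marked, and chance marks about 1 in 20.

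The change from the control differed between times, by the test of the difference itself, for 4 of the 5 genes. OSMR was 1.11 higher at 24 h and 1.00 higher at 48 h than at 6 h. JAK2 was 0.72 and 0.98 higher. CISH was 0.41 and 0.45 higher, and SOCS3 was 0.31 higher at 48 h. The times share their control arrays, so these values equal the differences between the allergen groups themselves. Of all probe sets 17.3% passed from 6 h to 24 h and 29.4% from 6 h to 48 h. Without muscle-rich arrays, or with the muscle covariate, JAK2 alone of the 5 genes passed from 6 h to 48 h. With the actin covariate 0 of the 5 genes passed from 6 h to 24 h or to 48 h.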

How the results depend on the processing

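CISH passed against the control at 24 h and 48 h under every alternative tried. The filter on dim probe sets removed OSM and SOCS3. Of the results for single genes, 601 kept direction and side of the threshold, 37 lost the call, 19 gained it and 21 changed sign, and the causes were not tested. The number of genes that passed at 24 h against the control was 2 with quantile normalization, centring, an intensity trend, array weights or the second actin pair, and 1 to 2 with a dog left out. At 6 h it was 1 with array weights and 0 to 1 with a dog left out. Without muscle-rich arrays, at either threshold, it was 0 from 6 h to 24 h, where fewer arrays remained, and 1 from 6 h to 48 h. With the muscle score as a covariate it was 2 from 6 h to 24 h and 1 from 6 h to 48 h. With the actin covariate it was 1 at 48 h against the control, 0 from 6 h to 24 h and 0 from 6 h to 48 h. Without the replicate block (the dog), the counts of the 5 genes stayed at 0, 1 and 3 at 6 h, 24 h and 48 h against the control, while probe sets that passed numbered 469, 2160 and 6487, against 1239, 3509 and 8438 with it. In the ordinary linear model without the block JAK2 at 48 h had an adjusted p of 0.0554.

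The changes that turned sign had not passed. OSM at 6 h was 0.0293 with array weights, 0.1988 without muscle-rich arrays, 0.1852 without those at a muscle score of 7 or more, 0.0316 with the muscle covariate, 0.0451 with the second actin pair and -0.0488 to 0.0543 with a dog left out. SOCS3 at 6 h was -0.0629 to 0.0914 with a dog left out and -0.0112 without arrays at 7 or more. OSM from 6 h to 24 h was -0.0746 and -0.0775 without arrays at 6 or 7 or more. From 24 h to 48 h CISH was -0.0097 and -0.0105 without those arrays, -0.0471 with the muscle covariate and -0.0099 to 0.1825 with a dog left out. OSMR was -0.2364 to 0.0106 with a dog left out, and SOCS3 was -0.0011 with the muscle covariate and -0.0124 with actin. The second actin pair, the muscle score of 7 and the fit without 1 array of dog 5 were chosen after seeing the data. Dim signals limit OSM and SOCS3.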
